A study of Mus musculus with 2 samples.

Results

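The glutamate, GABA and glycine receptor genes are 37 of the 21938 protein-coding genes on the assembled mouse chromosomes, and they carried 195 of the 62686 CTCF peaks in the reproducible set of newborn hindbrain. The members were chosen by name: 4 genes of AMPA receptors, 5 of kainate receptors, 7 of NMDA receptors, 1 of delta receptors, 7 of metabotropic glutamate receptors, 9 of GABA-A receptors and 4 of glycine receptors. Some receptor genes of these families are not in the list and were not analysed here. A peak belonged to a gene when its summit lay in the gene or within 10 kb of either end (mm10, GENCODE vM21). It was then classed as promoter (within 1 kb of any annotated start site of that gene), exon, intron or flank, in that order, and no peak fell to more than 1 member.

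CTCF was immunoprecipitated from hindbrain of B6NCrl mice at postnatal day 0, and the DNA was sequenced. The 2 libraries form 1 group. They are labelled as biological replicates 1 and 2, but both name the same biosample, a pool of ground hindbrains from several dissections with sex not collected, so their spread may be only technical. There is no second condition, and no test between conditions was possible. CTCF peaks do not show which cells a tissue holds, so the tissue label was not checked. The peak set used throughout is the authors' optimal IDR set, a set filtered for reproducibility. The signal is the peak caller's own value with no stated unit, taken against a control alignment. It is the authors' value and serves here only for ranking and description inside 1 list. Intervals are 95% Wilson intervals for shares and exact Poisson intervals for densities, and they cover counting error only. Read counts are not part of the peak lists, so depth is unknown.

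CTCF is a zinc-finger protein that binds a long, directional DNA motif. Cohesin extrudes chromatin loops until it meets CTCF, and loops form most often between motifs that point towards each other, so both the place and the direction of a site matter. The receptor genes encode channels and G-protein-coupled receptors on which much synaptic signalling in the brain rests. AMPA and kainate receptors carry fast excitation, NMDA receptors admit calcium when glutamate and depolarisation coincide, and metabotropic receptors tune release and excitability. GABA-A and glycine receptors are chloride channels. Glycine receptors are used mainly in the hindbrain and spinal cord, which makes them characteristic of this tissue. Many of these genes are very long, and 8 of the GABA-A receptor genes in the list sit in 3 clusters.

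The sequences under the strongest peaks are shown first because they place each site and its direction. The capitals mark the 14 bases that best match the CTCF core consensus, read on the strand named, with 8 bases on each side in lower case (mm10). Both strands were searched up to 50 bp from the summit, and up to 2 mismatches counted as a match. These are the 10 strongest peaks of the members, from the strongest down.
Glra1 intron, chr11:55518962-55518975, plus strand: tattgcaaCCAGAAGGTGGCAGgatgtgca
Grik4 intron, chr9:42550362-42550375, plus strand: cagagtggACACGAGGTGGCGGtgtgagga
Grid1 upstream flank, chr14:34810926-34810939, plus strand: agcaatggCCAGCAGAGAGCAGcattgcac
Grin2c upstream flank, chr11:115270679-115270692, minus strand: ctgtgtggCCACCAGGGGGAGTtggcggta
Grik4 promoter, chr9:42944920-42944933, minus strand: ctaaaacgCCACCAGGAGTCGCccttcgcc
Grin2d intron, chr7:45872742-45872755, plus strand: ggttgcagGCGCCAGAGGGCGCcagacagt
Gria1 intron, chr11:57310966-57310979, minus strand: agtgctggCCACAAGGTGGCAGccttgtgc
Grin2a promoter, chr16:9993891-9993904, minus strand: ttggaggaGCACCAGGTGGCGCtgcggccc
Grik5 intron, chr7:25036123-25036136, minus strand: cacagaggCCAGCAGAGGGCGAtgaatccc
Grm2 exon, chr9:106643359-106643372, minus strand: ggagctcaCCAGTAGAGGGCGCcagggctc

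All 10 hold a match, and the one in Grm2 has no mismatch. Over all 195 peaks, 117 held a match (60.0%, interval 53.0 to 66.6%), beside 66.1% of the optimal set. In windows 1 kb to the left and right of the same summits, 1.54% and 3.08% held one, and the reversed consensus matched at 2.05% of the summits. A perfect match lay under 8 peaks, at Glra1, Glra2, Gria4, Grik3, Grik4, Grin1, Grin2a and Grm2. A perfect match did not go with a high signal in every case, as these 4 show, with the Grin2a intron far below the others.
Grin1 intron, chr2:25293050-25293063, minus strand, signal 336.3: cagaacccCCACTAGGGGGCGCaggggtgg
Grik4 intron, chr9:42573320-42573333, plus strand, signal 337.5: ttgaaaccCCACTAGAGGGCGCacacccca
Glra2 promoter, chrX:165328107-165328120, plus strand, signal 132.9: acagtgagCCAGCAGGGGGCAGtagcaatc
Grin2a intron, chr16:9735453-9735466, plus strand, signal 46.47: ccaccagcCCAGCAGGGGGCACcatttggc

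Of the 37 genes, 21 had a promoter peak (56.8%, interval 40.9 to 71.3%), where 39.8% of all protein-coding genes had one. Long genes have one more often, and beside genes of like length the members lay on either side. Of the members under 50 kb, 2 of 7 had a promoter peak beside 35.2% of all such genes, and from 50 to 100 kb it was 3 of 6 beside 51.2%. From 100 to 300 kb it was 8 of 11 beside 57.4%, and over 300 kb it was 8 of 13 beside 67.4%. A promoter peak above the median signal of the optimal set, 73.8, was found at 12 members (32.4%, interval 19.6 to 48.5%) and at 20.2% of all protein-coding genes. The interval includes the latter share, which was not split by length.

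The members with a promoter peak were Gria1, Gria2, Gria3, Grik1, Grik2, Grik4, Grin2a, Grin2b, Grin2c, Grin3a, Grm2, Grm3, Grm4, Grm8, Gabra2, Gabra5, Gabrb2, Gabrg1, Gabrg3, Glra1 and Glra2. Those without were Gria4, Grik3, Grik5, Grin1, Grin2d, Grin3b, Grid1, Grm5, Grm6, Grm7, Gabra3, Gabra4, Gabra6, Gabrb1, Glra3 and Glrb. The 30 promoter peaks lay a median of 219 bp from the nearest start site, and 19 of them were upstream of it. The gene's own 5′ end was within 1 kb of 23 of them, and the other 7 were at another start site only. CpG content around the 5′ end, as the ratio of observed to expected CpG in a window of about 1 kb, went with promoter peaks over all protein-coding genes: 58.1% of those with a ratio over 0.6 had one and 24.2% of the others. Among the members it was 10 of 17 (58.8%) over that ratio and 11 of 20 (55.0%) of the others.

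A peak anywhere in the gene or its flanks was found at 34 members (91.9%, interval 78.7 to 97.2%), beside 75.5% of all protein-coding genes. By length this was 6 of 7 members under 50 kb, where 69.9% of all such genes had a peak, and 4 of 6 from 50 to 100 kb, where 91.7% did. All 11 members from 100 to 300 kb and all 13 over 300 kb had one, beside 96.1% and 98.2%. A peak in an exon or intron was found at 31 members (83.8%), beside 42.9% of all protein-coding genes. This share was not set beside genes of like length. Of the 37 members 24 were over 100 kb, and of the 21938 protein-coding genes 2492 were. The 3 members with no peak were Gabra4, Gabra6 and Glrb. Their 5′ ends were 42.9, 83.2 and 45.1 kb from the nearest peak.

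Most of the CTCF peaks at these genes were in introns: 133 of 195 (68.2%, interval 61.4 to 74.3%), beside 50.7% over all protein-coding genes. Promoters held 30 (15.4%, beside 24.1%), exons 9 (4.62%, beside 6.23%) and flanks 23 (11.8%, beside 19.0%). The members are longer than most genes, and these shares were not set beside genes of like length. Of the 9 exon peaks, 3 had their summit in coding sequence, in Grid1, Grin2c and Grm4. The median signal was 61.7, beside 73.0 over the peaks of all protein-coding genes, and 81 of 195 peaks (41.5%) were above the median of the optimal set. With the optimal set cut into 4 equal classes of signal, 30 of the 36 receptor gene peaks in the strongest class held the motif (83.3%), and 18 of the 49 in the weakest did (36.7%). Over the whole set these shares were 87.9% and 44.8%. The summit lay in repeat-masked sequence for 24 of the 195 (12.3%, interval 8.41 to 17.7%), beside 18.4% of the set.

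**Figure D1:**
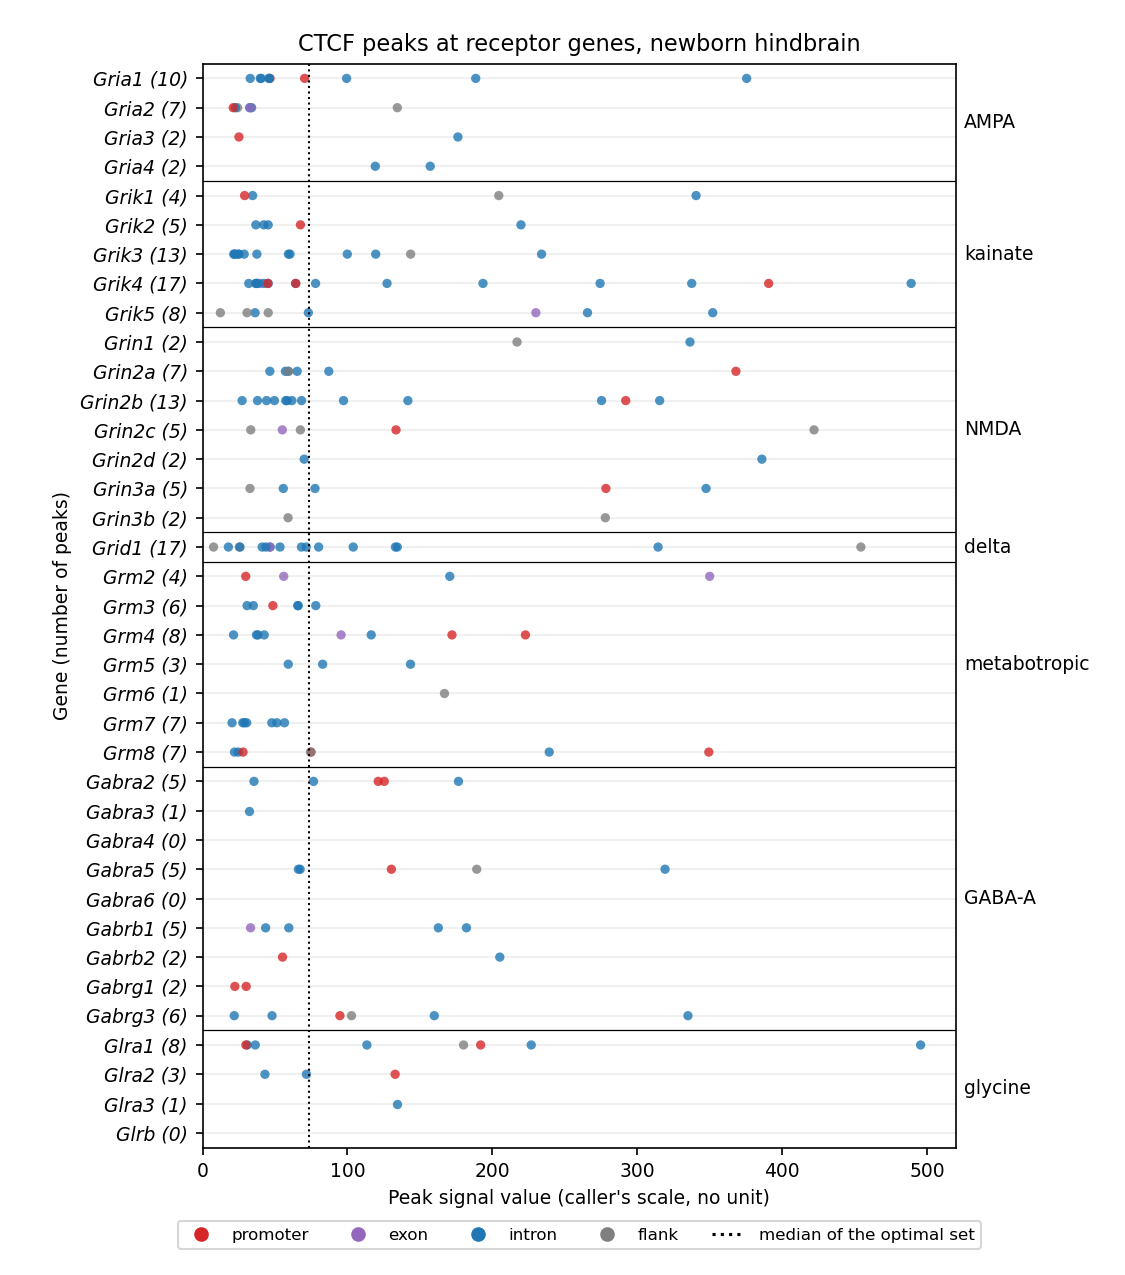
Each point is 1 CTCF peak of the optimal set at a receptor gene, placed by its signal value (caller's scale, no unit) and coloured by its place in the gene, with genes grouped by receptor family and the number of peaks in brackets. The dotted line is the median of the optimal set, 73.8; the strongest peaks lie in Glra1 and Grik4 at 495.4 and 488.9, and Gabra4, Gabra6 and Glrb are empty.

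AMPA receptor genes carried 21 peaks, with 3 of the 4 genes occupied at a promoter, all below the median signal. Gria1 (chr11:57011387-57330244) had 10 peaks, and the strongest, 375.4, lay in an intron 94.0% of the way along the gene. That peak ranked 3349 in the optimal set, 2769 in library 1 and 4036 in library 2. The Gria1 promoter peaks had signals of 46.55 at the 5′ end and 70.46 at an internal start site. Gria2 encodes the subunit whose edited pore keeps calcium out. It had 7 peaks, 1 of them at its promoter with a signal of 21.20 and no motif match, and the strongest, 134.4, was 2710 bp upstream of its start. Gria3, on chromosome X, had a promoter peak of 25.14 and an intron peak of 176.2. Gria4 had 2 intron peaks, of 157.1 and 119.2, and none within 259 kb of its 5′ end.

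Kainate receptor genes held 47 peaks, the most of any family. Grik4 encodes a high-affinity subunit that works only together with the other type of kainate subunit, and it is 426 kb long and had 17 peaks, 13 of them with the motif. Its main promoter peak was the strongest promoter peak of all members, at 390.6 and rank 2700, and its signal was 218.1 in library 1 and 169.7 in library 2. These are ranks 2995 and 2744 in the single-library lists, so both libraries placed it alike. The gene's strongest peak, 488.9, lay 92.4% of the way along it and ranked 464 in library 1 and 362 in library 2, and a peak of 337.5 lay at 87.1%. Both of these motifs point against the direction of transcription, while the motif of the promoter peak points along it. Grik3 had 13 peaks, 12 of them in introns, and no promoter peak. Its strongest, 233.9, was 95.2% of the way along the gene. Grik5, the other high-affinity subunit gene, had 8 peaks in its 62.5 kb and flanks, or 97.0 per Mb. Its strongest was the intron peak of 352.0, with rank 5986 in library 1 and 3203 in library 2, followed by an intron peak of 265.6 and an exon peak of 230.0 close to the 3′ end. A pair of weak upstream peaks of Grik5, 30.72 and 12.33, overlap and fall on 1 peak of each single-library list. Grik1 and Grik2, which encode low-affinity subunits, had weak promoter peaks of 29.04 and 67.56, and their strongest peaks were 340.5 and 219.7, in introns.

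NMDA receptor genes had 36 peaks, and the family held 4 of the 10 strongest promoter peaks. Grin2a and Grin2b encode the glutamate-binding subunits that exchange during postnatal life, with Grin2b the earlier one. The Grin2a promoter peak had a signal of 368.0 and ranked 2522 in library 1 and 4816 in library 2. That of Grin2b was 292.0, with ranks 8767 and 7518. Beside its promoter peak Grin2b had 12 intron peaks, the strongest 315.4, whereas Grin2a had 5 intron peaks of at most 87.11. Grin3a encodes a glycine-binding subunit that lowers calcium entry, and had a promoter peak of 278.3, with ranks 8929 and 9120, and an intron peak of 347.4. Grin2c, the subunit gene typical of cerebellar granule cells, had its promoter peak of 133.5 at an internal start site, with ranks 22288 and 20130. Its stronger peak, 421.9, lay 3453 bp upstream of the start and ranked 1536 in library 1 and 2033 in library 2.

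The obligatory NMDA subunit gene Grin1 had no promoter peak. Its 2 peaks were 336.3 in an intron at 93.3% of the gene and 217.0 at 9476 bp upstream. Grin2d had 2 intron peaks, of 385.9 and 70.15, both within 1 kb of a start site of Kdelr1, a neighbouring gene. The stronger one ranked 2838 in library 1 and 3252 in library 2. Grin3b, the shortest member at 6.48 kb, had 2 flank peaks and none inside, and the stronger of these, 277.9, was within 1 kb of a start of Tmem259. What these peaks do for either neighbour was not tested.

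Grid1 encodes a delta receptor that acts as a synapse organiser. It is 763 kb long and had 17 peaks, 14 of them in the gene and 3 upstream, and no promoter peak. The strongest, 454.2, lay 9156 bp upstream of its start and ranked 621 in library 1 and 1246 in library 2. The next, 314.3, lay 3219 bp into the gene. The other 15 were at most 134.4. Its upstream peaks of 25.40 and 7.642 overlap, and both fall on the same peak of each single-library list.

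Metabotropic glutamate receptor genes had 36 peaks over 7 genes. Grm8 and Grm4, group III receptors that damp transmitter release, had the strongest promoter peaks of this family. Grm8 had 3 promoter peaks, of 349.3, 74.90 and 27.94, and the first ranked 5745 in library 1 and 4120 in library 2. Grm4 had 2, of 222.8 and 172.1, and the first ranked 12818 and 13042. In both genes the libraries gave the main promoter peak similar ranks. Grm7, also of group III and the longest member at 922 kb (chr6:110645581-111567230), had 7 peaks that were all in introns, and its strongest was only 56.57. The nearest peak to its 5′ end was 124 kb away. Grm6, the receptor of retinal ON bipolar cells, had a single upstream peak of 166.3. Of the group II genes, Grm2 had an exon peak of 349.9 at its 3′ end, outside the coding sequence, with ranks 5213 and 3727, and a weak promoter peak of 29.82 that ranked 43513 in library 1 and 172376 in library 2. Grm3 had 6 peaks, none above 78.15. Grm5, the group I member, had 3 intron peaks of 143.5, 82.88 and 59.16 and no promoter peak in the optimal set.

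GABA-A receptor genes had 26 peaks, 5 of 9 genes with a promoter peak, and the lowest density of the families, 11.8 per Mb (interval 7.68 to 17.2). The metabotropic genes were close to this, at 12.7 per Mb (interval 8.88 to 17.6). The motif of the only RefSeq promoter window with both a summit and a match is printed here, since it shows the site beside the start of Gabra5, a subunit typical of extrasynaptic receptors. RefSeq windows (GRCm38.p6, 250 bases before to 50 after a start) were matched by symbol for 27 of the 37 members in 34 windows, 4 of which held a summit. The window is written in the direction of the gene, which is on the minus strand, so the capitals are the reverse complement of a plus-strand match.
Gabra5 promoter, chr7:57510010-57510309, minus strand: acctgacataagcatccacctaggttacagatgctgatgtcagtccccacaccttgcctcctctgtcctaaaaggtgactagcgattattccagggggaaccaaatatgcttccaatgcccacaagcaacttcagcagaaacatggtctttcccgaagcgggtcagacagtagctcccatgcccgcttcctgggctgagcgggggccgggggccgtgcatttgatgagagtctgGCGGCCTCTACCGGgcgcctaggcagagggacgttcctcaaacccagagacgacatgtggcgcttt

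A match anywhere in such a window was found in 14.4% of the 32851 windows of the whole table and in 6 of the 34 of the members. The Gabra5 promoter peak had a signal of 130.3, with 75.70 in library 1 and 51.33 in library 2. Its summit lay 14 bp upstream of the start.

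The GABA-A genes on chromosome 7, Gabrg3 and Gabra5, lie in the same direction in a locus of 0.814 Mb with 11 peaks (13.5 per Mb). The 3 strongest were 334.9 in an intron of Gabrg3 2869 bp from its 5′ end, 319.1 in an intron of Gabra5 and 189.2 upstream of Gabra5. In library 1 the first of these ranked 4172 and in library 2 7083. The body of Gabrg3 between 56946587 and 57384319 held no peak, a stretch of 438 kb. A weak intron peak of Gabrg3, 21.90, had rank 53079 in library 1 and only 285535 in library 2. The matches of the strongest peaks on this chromosome and of the other 2 clusters read as follows, for comparison of their direction.
Chromosome 7, Gabrg3 intron, chr7:57384317-57384330, minus strand, signal 334.9: gcctctcaCCACTAGAGGGAGAatgagact
Chromosome 5, between Gabra2 and Gabra4, chr5:71502254-71502267, plus strand, signal 236.6: atatgaccACACCAGGGGGCGCtcttaaca
Chromosome 11, Gabrb2 intron, chr11:42423457-42423470, minus strand, signal 205.1: caacgtggGCAGCAGGGGGCGCtcctgcat

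The chromosome 5 cluster (Gabrg1, Gabra2, Gabra4 and Gabrb1) spans 1.42 Mb and had 15 peaks, or 10.6 per Mb (interval 5.92 to 17.4). Its 3 strongest were 236.6 between genes, 182.1 in an intron of Gabrb1 at 89.0% of the gene, and 176.6 in an intron of Gabra2, which had no motif match. Gabra4 and Gabrb1 start head to head, and neither had a promoter peak. The same peak, of 162.7 in an intron of Gabrb1, was the nearest to both 5′ ends. It lay 42.9 kb from that of Gabra4 and 43.1 kb from that of Gabrb1. From an internal start site of Gabrb1 it was 1276 bp away, outside the 1 kb limit for a promoter peak. At the promoters of Gabra2 there were 2 peaks, of 125.4 and 121.2, with motifs on opposite strands. Gabrg1 had only 2 promoter peaks, of 22.31 and 30.13, neither with a motif. The longest stretch without a peak, 265 kb, lay in Gabrb1.

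The chromosome 11 cluster, 0.343 Mb with Gabra6 and Gabrb2, had 3 peaks. They were 205.1 in an intron of Gabrb2 3708 bp from its 5′ end, 55.21 at its promoter and 32.44 between the genes. The last was in the list of library 2 at rank 34722 but absent from that of library 1. Gabra6, a subunit gene characteristic of mature cerebellar granule cells, had no peak in the gene or its flanks. Gabra3, on chromosome X and in no cluster, had a single weak intron peak of 31.98. Between neighbouring peaks with a motif, 2 of 9 pairs pointed towards each other on chromosome 5, 1 of 6 on chromosome 7 and 1 of 2 on chromosome 11.

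**Figure D2:**
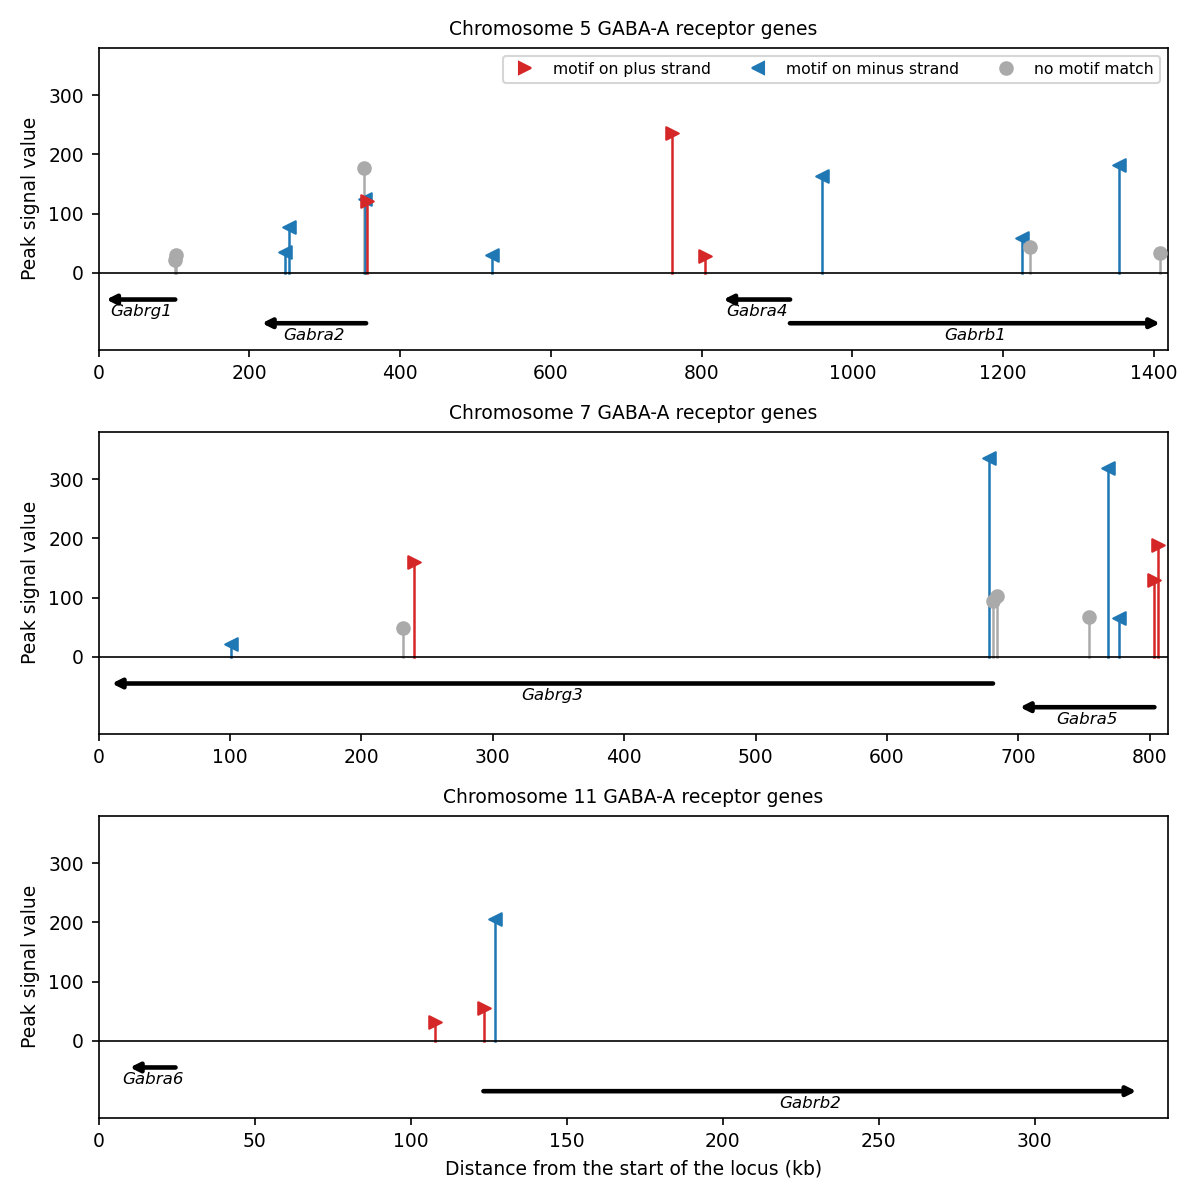
The 3 panels map the GABA-A receptor clusters on chromosomes 5, 7 and 11 by distance from the start of the locus (kb), with arrows for genes in their direction of transcription. Stems give each peak's signal (caller's scale, no unit) and the marker its motif strand; Gabra4 and Gabra6 hold no peak, and the tallest stem, 334.9, stands beside the start of Gabrg3.

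Glycine receptor genes had 12 peaks, all at the alpha subunit genes. Glra1, the alpha subunit of the mature receptor, had 8 peaks, 1 of them in a flank, and a length of 94.0 kb. Its intron peak of 495.4, close to the 3′ end of the gene, was the strongest peak of any member, ranking 331 in the optimal set, 378 in library 1 and 326 in library 2. It had 2 promoter peaks, and the stronger, 191.9, at 939 bp from the 5′ end, had a signal of 109.4 in library 1 and 82.38 in library 2. The weaker, 29.93, lay 352 bp from the 5′ end. The 6 Glra1 peaks with a motif match all had it on the plus strand, against the direction of the gene. Glra2, the subunit of the fetal receptor, is on chromosome X and had a promoter peak of 132.9, with ranks 19834 in library 1 and 24280 in library 2, and intron peaks of 71.70 and 43.09. Glra3 had a single intron peak of 134.5, at 123 kb from its 5′ end. Glrb, the beta subunit that anchors the receptor to gephyrin, had none.

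Peak density over the members with their flanks was 18.0 per Mb (interval 15.6 to 20.7), and 35.65 over all protein-coding genes. By length class both densities fell, and the members over 100 kb were below genes of like length. Gene by gene, Spearman's rho between length and density was -0.42 across the 37 members and only -0.02 across all protein-coding genes, as a description. Under 50 kb the densities were 56.7 and 49.7 per Mb, from 50 to 100 kb 41.6 and 41.5, from 100 to 300 kb 21.5 and 32.9, and over 300 kb 13.5 and 20.02. The longest stretches of a gene without a peak were 441 kb in Grm5, 438 kb in Gabrg3, 387 kb in Grik2 and 383 kb in Grm8. The highest densities were at members under 100 kb: Grin2c (131 per Mb), Grm2 (121), Grik5 (97.0), Grin3b (75.5) and Glra1 (70.2). The most peaks were at Grik4 and Grid1 with 17 each, Grik3 and Grin2b with 13 each and Gria1 with 10.

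Long members are poor in GC. The edge of 40% was chosen after the values were seen. Of the 24 over 100 kb, 15 (62.5%) had under 40% GC with their flanks, beside 25.1% of all protein-coding genes of that length. The density in these 15 was 9.70 per Mb (interval 7.40 to 12.5), beside 11.45 for all such genes, and in the other 9 it was 24.75, beside 34.01. Spearman's rho between GC content and density was 0.75 across the 37 members and 0.64 across all protein-coding genes, given as a description, since genes share the same libraries. The 3 members on chromosome X had 6 peaks in all, or 7.89 per Mb (interval 2.90 to 17.2), beside 14.65 for all genes of that chromosome. Sex was not collected, and what GC content, copy number and length contribute was not tested.

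**Figure D3:**
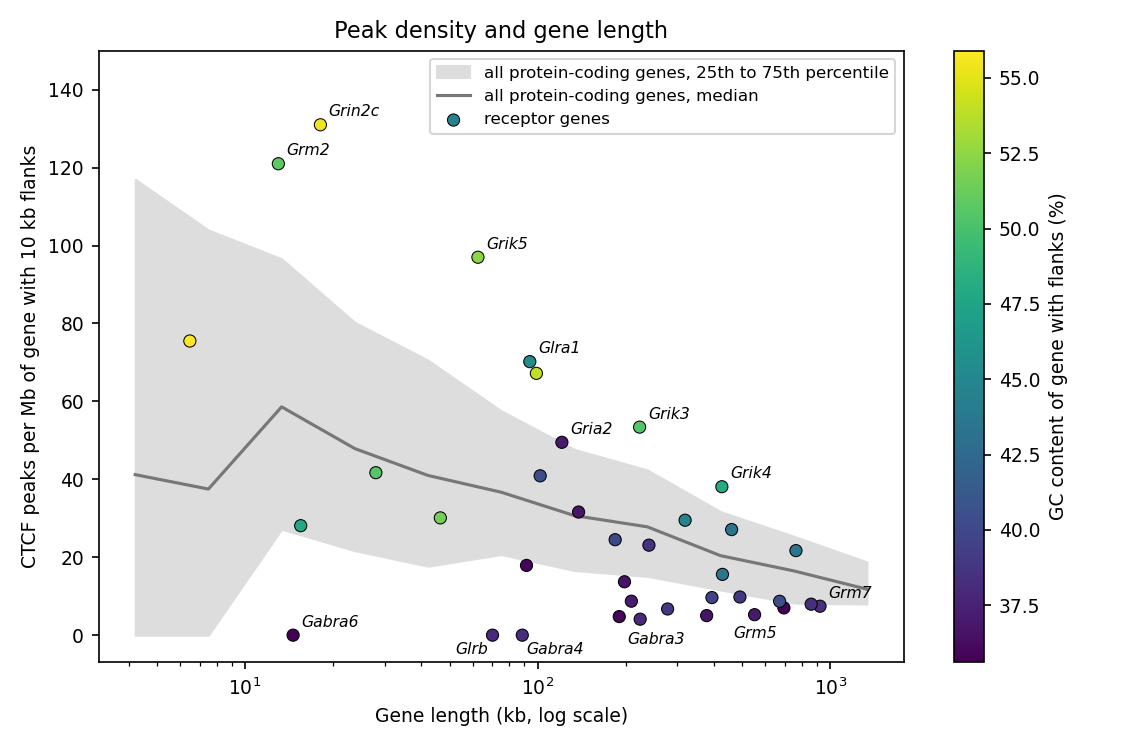
Each circle is a receptor gene, placed by gene length (kb, log scale) and CTCF peaks per Mb of the gene with its 10 kb flanks, and coloured by GC content (%). The grey line and band are the median and the range from the 25th to the 75th percentile of all protein-coding genes in bins of length. Most members under 40% GC lie low. The highest of them are Gria2 at 49.5 and Gabra2 at 31.6 per Mb, and Gabra4, Gabra6 and Glrb are at 0.

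The place of each gene's strongest peak was set beside that in all protein-coding genes over 50 kb. Among the 28 members over 50 kb that had a peak, it lay in the last 15% of the gene for 9 (32.1%): Gria1, Gria4, Grik3, Grik4, Grin3a, Grm5, Grm7, Gabrb1 and Glra1. Of 4713 protein-coding genes over 50 kb with a peak, 14.8% had it there. The edge of 15% was chosen after the values were seen. With the last 10% the count was 7, and with the last 20% it was 9. The shares of all protein-coding genes at these other edges are not given here, so the comparison rests on the edge of 15%. The strongest peak lay in the first 15% of the gene for 5 members (17.9%), beside 8.44% of all such genes. At a promoter it was 5 members (17.9%, beside 14.3%), and in the upstream flank 2 (7.14%, beside 8.78%). The middle held it for 7 members, beside 39.9% of all such genes, and the downstream flank for 0, beside 13.8%. The 2 sets differ in length. From 50 to 100 kb there were 6 members and 2515 protein-coding genes, with or without a peak. From 100 to 300 kb there were 11 and 1925, and over 300 kb 13 and 567. The places were not split by these lengths, and what length contributes was not tested.

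The direction of the motif was known for 116 peaks, and 62 pointed along the gene (53.4%, interval 44.4 to 62.3%), beside 50.9% of all protein-coding genes. In promoters 10 of 15 pointed along the gene (66.7%, beside 52.9% over all protein-coding genes), and in the first 15% of the gene 14 of 22 did (63.6%, beside 56.6%). In the middle it was 21 of 47 (44.7%, beside 49.6%) and in the last 15% 8 of 17 (47.1%, beside 42.6%). The intervals of these shares overlap.

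**Figure D4:**
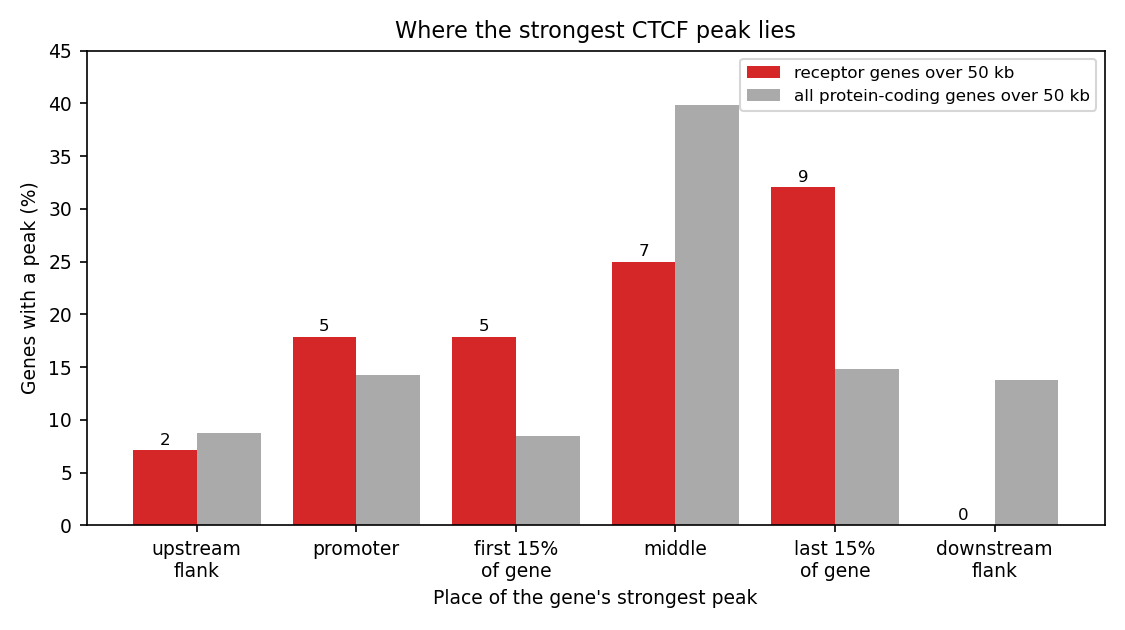
Bars give the share (%) of genes over 50 kb with a peak whose strongest CTCF peak lies in each place, for the receptor genes (red, with counts) and all protein-coding genes (grey). The last 15% of the gene holds it in 32.1% of the receptor genes and 14.8% of all genes, and the middle in 7 receptor genes and 39.9% of all genes.

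Both libraries carried most of these peaks, which were taken from a set filtered for reproducibility in the same data. Overlap and agreement in rank between the libraries are therefore in part fixed by that choice. Library 1 had a peak overlapping each of the 195, and library 2 one overlapping 193. Missing from library 2 were a Grid1 intron peak of 17.85 and a Grm8 intron peak of 22.05. Within the 62686 strongest peaks of a library there were 179 in library 1 and 171 in library 2, and 162 (83.1%) in both. Ranks of the 193 shared peaks in the single-library lists had a Spearman's rho of 0.92, as a description. The authors' conservative set, which holds 59979 peaks, included 169 of the 195 (86.7%).

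**Figure D5:**
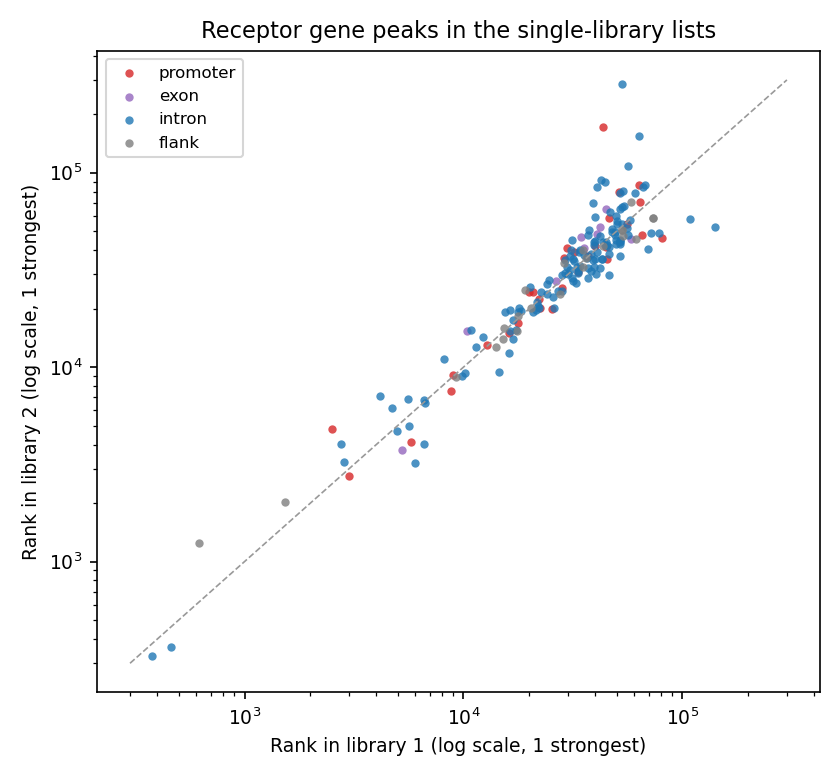
Each point is 1 receptor gene peak, placed by its rank in the list of library 1 and of library 2 (both log scale, 1 strongest), with the dashed line marking equal ranks. Strong peaks lie close to the line, and weak ones spread, up to rank 285535 in library 2.

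Of 38 genes for auxiliary subunits, scaffolds and partners of these receptors, 16 had a promoter peak (42.1%, interval 27.9 to 57.8%), near the 39.8% of all protein-coding genes. All 38 had a peak in the gene or its flanks (interval 90.8 to 100%), beside 75.5%. The median length of these 38 genes was 82.3 kb. Of all protein-coding genes of 50 to 100 kb, 51.2% had a promoter peak and 91.7% had any peak. The strongest promoter peaks of the list were at Pick1 (646.5), which binds AMPA receptor tails, Shank1 (396.5) and Homer3 (219.3), which are postsynaptic scaffolds, and Dlg3 (200.5), a scaffold of the PSD-95 family. Among those without a promoter peak were Cacng2 and Cacng3, which encode auxiliary subunits of AMPA receptors. Among genes with a promoter peak, the median of the strongest promoter signal was 67.0 in this list, 125.4 in the receptor genes and 75.4 in all protein-coding genes.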

How the data were processed

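CTCF ChIP-seq was measured in 2 libraries of 1 group, newborn mouse hindbrain. The deposited files are narrowPeak lists on mm10: 300000 peaks for each library, 251251 from the pooled alignments, and the IDR sets (59979 conservative and 62686 optimal peaks), which the authors derived from the other lists, per the deposited description of the files. The deposited signal value is a score on the caller's scale, and the deposited IDR score is a whole number up to 1000. The deposited q values, as −log10, were not used to rank. The deposited summit offset in bp gave each summit. For aligner, peak caller and IDR threshold, the sources used here name none.

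Peaks were assigned to GENCODE vM21 genes by summit with Python 3.11.15, numpy 2.4.6 and scipy 1.17.1, leaving out 9 optimal peaks off the assembled chromosomes. The counting steps were tested on simulated data. The CTCF core consensus (14 bp) was searched within 50 bp of each summit with at most 2 mismatches. Peaks were matched between lists by at least 1 bp of overlap. Values are counts and medians with 95% intervals. No test between groups was made. Named were all members by promoter peak, the 10 strongest promoter peaks and peaks, the 5 genes with most peaks and most peaks per Mb, genes with none, and the 3 strongest peaks of each GABA-A locus. From the list of receptor partners, the 4 strongest promoter peaks and up to 3 genes without one were to be named, and 1 of these is not reported here. The other peaks given were named after their values were seen. The members and lists were chosen with earlier results of these data known. Alternatives used the conservative set, only the upper 31343 optimal peaks by signal, the 62686 strongest pooled peaks or peaks of each library alone, merged summits (under 150 bp), promoters of 500 and 2500 bp, 5′ ends only, protein-coding transcripts only, flanks of 5 and 50 kb, locus margins of 50 kb, 1 or 3 mismatches and windows of 25 or 100 bp.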

Additional observations from a re-analysis of the deposited data

Results flagged for a closer look

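At Grm5, a pooled-list peak within 1 kb of a start site (chr7:87584264-87584583) had a signal of 33.06. It is in the conservative IDR set and not in the optimal set on which the report rests, so Grm5 is counted there as having no promoter peak. At the receptor genes 14 pooled peaks outside the optimal set were counted as overlapping a conservative peak. The Grm5 peak is the one at a promoter that overlaps no optimal peak. Flank peaks at Grm4 (48.06) and Grin3b (33.88) are stronger. The Grm5 peak ranked 50941 in the pooled list, 44237 in library 1 and 57029 in library 2, and held no motif match.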

How the results depend on the processing

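Over 12 results and 103 alternative values, 91 stayed within the limits set (a count within 1.5 times, a value within its interval) and 12 moved. Merging summits under 150 bp apart left every value unchanged, and these values are among the 91. It did not join the overlapping peak pairs upstream of Grid1 and Grik5, so it says little about split peaks. With only the 31343 strongest optimal peaks, members with a promoter peak numbered 12, peaks at members 81, and the chromosome 5, 7 and 11 loci held 7, 7 and 1 peaks. In the same setting the median signal was 177, the motif share 77.8%, the density 7.48 per Mb, and 6 synapse list genes had a promoter peak; each follows from keeping fewer and stronger peaks. Flanks of 50 kb lowered the intron share to 47.7%, as more flank peaks entered. Allowing 1 mismatch gave a motif share of 31.3%, and allowing 3 gave 84.1%. Each library alone (the other left out) gave 19 to 21 members with a promoter peak, 34 to 35 with any peak, 195 to 198 peaks, 66.7 to 69.2% in introns, 56.9 to 60.6% with the motif, 18.0 to 18.3 peaks per Mb, 17 to 19 synapse list genes, 13 peaks in the chromosome 5 locus, 11 in the chromosome 7 locus and 3 to 4 in the chromosome 11 locus. The count of strongest peaks in the last 15% of members over 50 kb was 8 to 9 there; its alternatives were chosen after seeing the data. No paired analysis was possible because there is 1 group. Depth is unknown, and 7 of the 16 members without a promoter peak have none in the pooled list either.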

Other observations

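Below the optimal set, the pooled list held 697 more peaks at the receptor genes, with a median signal of 9.19 and a motif match at 15.6%. Of these, 14 were counted as overlapping a peak of the conservative set, and 5 as overlapping a peak of the optimal set. Of the 16 members without a promoter peak in the optimal set, 9 had a pooled one, the strongest after Grm5 being at Grin1 (18.45), Gria4 (17.45), Grid1 (15.60), Glra3 (14.41) and Grm7 (14.34). Gabra3 had no further peak at all. Gabra4, Gabra6 and Glrb, without an optimal peak, had 3, 2 and 3 pooled peaks, of at most 14.81, 22.33 and 15.67, none at a promoter.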
